A study of Mus musculus with 7 samples.

Results

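The LIF pathway and the luminal receptivity factors of the mouse uterus were followed through 9 genes, namely Lif, Lifr, Il6st, Stat3, Socs3, Msx1, Msx2, Klf5 and Calca. The genes were taken by their symbols and not by their values, and each symbol had a row among the 23282 gene rows of the tables. All 9 passed the filter on low counts and were tested, although Lif and Calca had few counts in most libraries, as given below. In the study, recombinant human CXCL12, a chemokine, was infused into the cavity of a single uterine horn of C57BL/6 females aged 6 weeks, and saline was infused into the other horn of the animal. The dose was 100 ng in 30 µl of saline. Whole uterine tissue was sequenced from the 3′ end of its mRNA, giving 2 saline libraries, 2 libraries labelled CXCL12 Day 3 and 3 labelled CXCL12 Day 8. All groups were therefore infused, the day of the saline horns is not given by the labels, and neither the stage of the oestrous cycle nor the animal behind each library is stated, so the spread between libraries may be technical or biological.

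LIF is a cytokine of the interleukin-6 family that the mouse uterus secretes, mainly from its glands, shortly before the embryo attaches. It binds a receptor made of LIFR and the shared chain gp130, encoded by Il6st, and the bound receptor activates STAT3, which in turn induces Socs3, an inhibitor that closes the loop. The homeobox factors MSX1 and MSX2 and the zinc-finger factor KLF5 act in the luminal epithelium that the embryo first meets, and Calca encodes calcitonin and the peptide CGRP, of which calcitonin is known as a progesterone-induced product of uterine glands in rodents.

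The promoters of 3 members are shown, that of Socs3 because it held the only match to the motif of STAT factors, and those of Msx1 and Calca because these genes passed the test against saline described below. Each run holds 300 bases, from 250 bases before to 50 bases after the start that RefSeq gives in GRCm38.p6, read 5′ to 3′ on the gene's own strand, which is the minus strand for all 3. The run of Socs3 lies in chr11:117969317-117969616, that of Msx1 in chr5:37824536-37824835 and that of Calca in chr7:114636308-114636607. GENCODE M21 places the Socs3 gene at chr11:117966079-117970047, so in that annotation the Socs3 run lies inside the gene. Capitals mark the letters TTCNNNGAA, searched on both strands.
Socs3: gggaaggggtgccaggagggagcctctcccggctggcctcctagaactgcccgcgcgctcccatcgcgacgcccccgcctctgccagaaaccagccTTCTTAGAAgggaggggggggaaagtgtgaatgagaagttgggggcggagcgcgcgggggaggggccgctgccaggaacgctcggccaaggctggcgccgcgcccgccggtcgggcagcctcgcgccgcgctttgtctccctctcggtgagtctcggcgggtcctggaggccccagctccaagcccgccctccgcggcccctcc
Msx1: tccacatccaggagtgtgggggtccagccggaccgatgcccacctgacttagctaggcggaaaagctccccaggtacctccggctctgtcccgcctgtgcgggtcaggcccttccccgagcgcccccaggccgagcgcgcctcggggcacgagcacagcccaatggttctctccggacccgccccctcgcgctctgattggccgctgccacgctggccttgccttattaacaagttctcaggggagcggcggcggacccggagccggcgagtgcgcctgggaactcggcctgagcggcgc
Calca: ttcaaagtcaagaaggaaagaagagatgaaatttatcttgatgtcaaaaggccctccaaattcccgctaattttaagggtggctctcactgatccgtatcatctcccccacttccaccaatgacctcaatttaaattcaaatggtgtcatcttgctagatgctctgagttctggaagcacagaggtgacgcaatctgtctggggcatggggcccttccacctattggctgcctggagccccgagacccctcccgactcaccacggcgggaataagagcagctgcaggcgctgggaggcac
The Socs3 match, TTCTTAGAA, began 154 bases before the start. Of the 8 members with a promoter in the RefSeq table, which does not list Klf5, only Socs3 held these letters, against 8.3% of all 32851 promoters of the same length. The cAMP response element TGACGTCA was in none of the 8 and in 1.79% of all promoters. Likewise, none of the 8 held the oestrogen response element GGTCANNNTGACC, found in 0.07%, or the steroid receptor element GNACANNNTGTNC, found in 0.475%.

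The 6 tables of raw counts summed to between 6908790 and 12308982 counts. CXCL12 Day 3 replicate 1 was deposited as log2 of a normalised count plus 1, and its counts were estimated from the spacing of its low values, which gave a total of 10435470. Levels are given as counts per 1000000 (CPM) after scaling by the trimmed mean of M-values, and 3 counts, taken here as the floor for detection, correspond to between 0.2509 and 0.3625 CPM. This floor covers counting error only. Libraries of a group differed by more than counting noise, since between 33.6% and 67.2% of genes lay beyond the 5% expected from counting alone. The 2 Day 3 libraries were the closest, with a correlation of 0.975 across genes. Day 8 replicate 1, whose table carries a Day 3 name, was placed by its sample label. It correlated at 0.947 and 0.948 with the Day 3 libraries and at 0.892 and 0.894 with the other Day 8 libraries. Results of the 9 members are therefore also given without it, while those of the gene lists are not. Saline replicate 1, the library with the fewest counts, correlated at 0.902 with saline replicate 2 and at 0.873 to 0.896 with the CXCL12 libraries. Saline replicate 2 correlated with the CXCL12 libraries at 0.89 to 0.948. Every comparison with saline rests on these 2 libraries. Markers of uterine epithelium (10 of 10 detected), stroma (10 of 10) and smooth muscle (8 of 8) were present, while summed ovarian markers ran from 28.7 CPM in Day 8 replicate 3 to 3751 CPM in Day 8 replicate 2, and summed fat markers from 245 to 3033 CPM.

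A gene was called where its level differed at least 2-fold with an unadjusted P under 0.05. The study set these cutoffs together with a false discovery rate of 0.1, which is not part of the rule used here. With an adjusted p under 0.1 no gene was called in any of the 3 comparisons, by edgeR for Day 8 against saline and by limma for the others. DESeq2 gave 49 genes at Day 8 against saline, none of them a member. An unadjusted P under 0.05 was reached by 656 of 15388 genes at Day 8 against saline. The counts were 1093 of 14800 at Day 3 against saline and 1063 of 14800 between the days. Without any difference a share of 0.05 would be expected, and the count at Day 8 against saline lies under it. Every call below therefore rests on an unadjusted P. Day 3 and Day 8 were compared with the same 2 saline libraries.

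Among the members, Msx1 was lower at Day 3 than in saline, Msx1 and Lifr were higher at Day 8 than at Day 3, and Calca was higher at Day 8 than in saline through 2 of the 3 Day 8 libraries. The remaining members, Lif, Il6st, Stat3, Socs3, Msx2 and Klf5, passed the rule in no comparison. At Day 8 against saline 1 of 9 members (Calca) was called, where 2.94% of the 15388 genes tested were called. Calca passed the filter on low counts only through Day 8 replicates 2 and 3. With at least 10 counts required in every library, 0 of 7 tested members were called. At Day 3 against saline 1 of 9 was called against 4.51% of 14800 genes, and at Day 8 against Day 3 the count was 2 of 9 against 4.64%. The median log2 difference over the 9 members was 0.56, 0.12 and 0.38 in these comparisons, and that over all genes tested was -0.008, 0.008 and 0.001. In CPM, 0 of 9 members had no overlap between Day 8 and saline, where 19.2% of genes had none. The count was 4 of 9 between Day 3 and saline (Lifr and Msx1 below, Stat3 and Socs3 above), against 48.9% of genes, and 3 of 9 between the days (Lif below, Lifr and Msx1 above at Day 8), against 32.9%. In whole tissue, fewer cells of a type cannot be told apart from less RNA per cell.

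**Figure D1:**
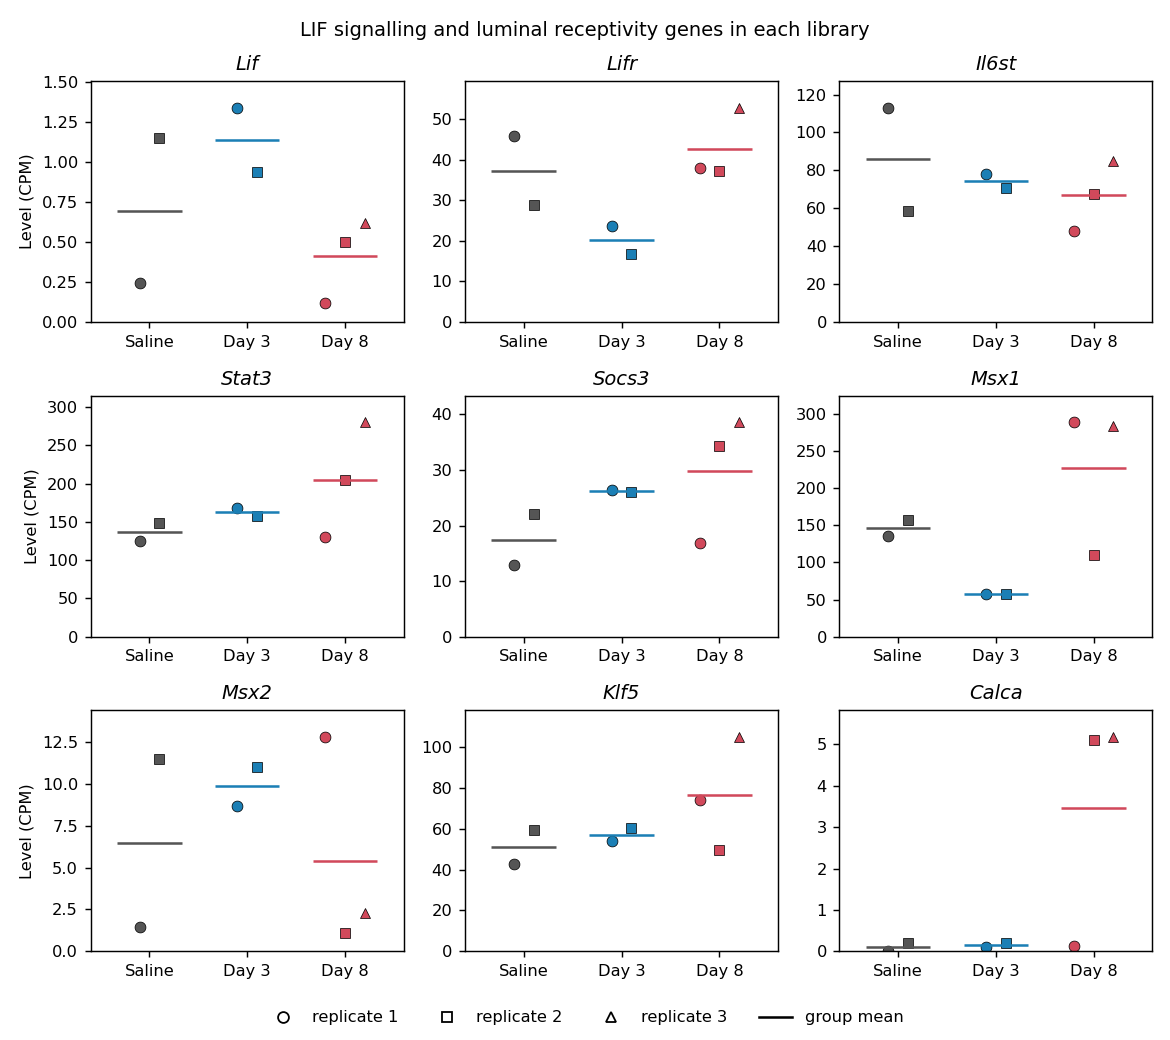
Level of each gene in CPM (vertical axis, linear from 0) in the saline, CXCL12 Day 3 and CXCL12 Day 8 libraries. Each point is 1 library and each bar the group mean. Both Day 3 libraries lie below every other library for Msx1 and Lifr, and Calca stands at 5.10 and 5.18 CPM in 2 Day 8 libraries and at most at 0.208 CPM in the other 5 libraries.

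The ligand Lif was close to the floor in every group. It had 2 and 12 counts in the saline libraries, 13 (estimated) and 9 at Day 3, and 1, 6 and 6 at Day 8, or 0.24 and 1.15, 1.34 and 0.94, and 0.12, 0.50 and 0.62 CPM. Saline replicate 1 and Day 8 replicate 1 were under the floor of 3 counts, the saline range enclosed 3 of the 5 other values, and only the Day 3 and Day 8 libraries did not overlap. Summed over libraries and relative to depth, Lif at Day 8 was 0.576 times its saline level, with an exact 95% counting interval from 0.249 to 1.32 (13 against 14 counts). Day 3 was 1.52 times saline, with an interval from 0.745 to 3.22, and Day 8 was 0.378 times Day 3, from 0.175 to 0.784, intervals that leave out the spread between libraries. With that spread, the log2 difference was -0.76 (95% interval -3.43 to 1.91, adjusted p = 0.96, edgeR) at Day 8 and 1.31 (-1.16 to 3.77, adjusted p = 0.68, limma) at Day 3. Without Day 8 replicate 1 the differences of Day 8 were -0.36 from saline (edgeR) and -1.07 from Day 3 (limma). A difference in Lif was thus not detectable at this depth and spread.

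Lifr, the ligand-specific receptor chain, was lowest at Day 3. Its levels were 45.8 and 28.8 CPM in saline, 23.8 and 16.8 CPM at Day 3, and 37.9, 37.2 and 52.7 CPM at Day 8. Both Day 3 libraries were below all 5 others, whereas saline and Day 8 overlapped. The Day 3 mean was 20.3 ± 4.96 CPM (SD, n = 2), against 37.3 ± 12.0 CPM in saline (n = 2) and 42.6 ± 8.76 CPM at Day 8 (n = 3). At Day 8 against Day 3, Lifr rose 2.07-fold (log2 difference 1.05, SE 0.32, limma unadjusted P = 0.011, adjusted p = 0.69). The call was lost without Day 3 replicate 2 (0.80) or without Day 8 replicate 3 (0.90), and was kept without Day 8 replicate 1 (1.12). At Day 3 against saline the log2 difference of -0.86 (SE 0.35, limma unadjusted P = 0.041, adjusted p = 0.62) stayed short of 2-fold. It passed without quantile normalisation, at -1.14 (where the median of all genes was -0.262), without saline replicate 2, at -1.24, and without Day 3 replicate 1, at -1.10. Day 8 and saline differed by 0.17 on the log2 scale (95% interval -0.61 to 0.95, edgeR), and by 0.25 without Day 8 replicate 1.

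Il6st, the signalling chain gp130, was measured at 113 and 58.6 CPM in saline, 77.9 and 70.6 CPM at Day 3, and 48.0, 67.7 and 85.1 CPM at Day 8. The saline libraries held both the highest value and one of the lower values, and enclosed the Day 3 pair. The log2 differences were -0.38 at Day 8 against saline (95% interval -1.29 to 0.53, edgeR), -0.25 at Day 3 against saline (-1.18 to 0.68, limma) and -0.11 between the days (-0.96 to 0.74, limma). The first 2 turned positive without saline replicate 1, at 0.17 and 0.30. Without Day 8 replicate 1 the differences of Day 8 were -0.19 from saline (edgeR) and 0.11 from Day 3 (limma).

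Stat3, the transcription factor that the receptor activates, had 124.5 and 149 CPM in saline, 168 and 158 CPM at Day 3, and 130, 204 and 280 CPM at Day 8. Both Day 3 libraries lay above both saline libraries on the CPM scale, but not after quantile normalisation, and Day 8 replicate 1 lay within the saline range. The log2 difference was 0.56 at Day 8 (95% interval -0.32 to 1.44, adjusted p = 0.96, edgeR) and 0.06 at Day 3 (-0.75 to 0.87, adjusted p = 0.96, limma), the latter turning to -0.02 without quantile normalisation. Without Day 8 replicate 1, Stat3 differed from saline by 0.80 at Day 8 (edgeR unadjusted P = 0.036, adjusted p = 0.52) and between the days by 0.68 (limma unadjusted P = 0.017, adjusted p = 0.17), both short of 2-fold. The 3′ end of Stat3 overlaps that of Stat5a on the other strand, whose counts were 0.0374 to 0.128 times those of Stat3 in the 6 count tables.

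Socs3, the inhibitor induced by STAT3, had 12.8 and 22.1 CPM in saline, 26.3 and 26.0 CPM at Day 3, and 16.9, 34.2 and 38.5 CPM at Day 8. Both Day 3 libraries and Day 8 replicates 2 and 3 were above saline, and Day 8 replicate 1 was between the saline libraries. The log2 difference was 0.75 at Day 8 (95% interval -0.30 to 1.80, unadjusted P = 0.13, adjusted p = 0.96, edgeR) and 0.62 at Day 3 (-0.38 to 1.62, adjusted p = 0.65, limma), neither past the threshold. Without Day 8 replicate 1, Socs3 passed the rule at Day 8 against saline, with a log2 difference of 1.03 (edgeR unadjusted P = 0.03, adjusted p = 0.50), while that between the days went from 0.10 to 0.46 without passing.

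Msx1, a homeobox factor of the luminal epithelium, had the smallest P of the members in both limma comparisons. It had 1121 and 1646 counts in saline, 555 (estimated) and 553 at Day 3, and 2479, 1318 and 2731 at Day 8, or 135 and 158, 57.1 and 57.6, and 288, 110 and 283 CPM. The Day 3 libraries nearly coincided and lay below all others, while Day 8 held 2 libraries above saline and 1 below. The group means were 146.5 ± 15.6 CPM in saline (SD, n = 2), 57.3 ± 0.315 CPM at Day 3 (n = 2) and 227 ± 101 CPM at Day 8 (n = 3). Msx1 fell at Day 3 to 0.36 times its saline level (log2 difference -1.48, SE 0.43, limma unadjusted P = 0.0088, adjusted p = 0.62). From Day 3 to Day 8 it rose 3.70-fold (1.89, SE 0.39, limma unadjusted P = 0.0013, adjusted p = 0.65), and without Day 8 replicate 1 the difference was 1.68. Both calls held under every alternative run, with log2 differences from -1.62 to -1.38 and from 1.65 to 2.33. At Day 8 against saline the difference of 0.62 (95% interval -0.45 to 1.68, edgeR; 0.40 without Day 8 replicate 1) did not pass.

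The row of Msx1 was not separate from that of its antisense gene. Msx1os, which RefSeq places at chr5:37820564-37822751 inside Msx1 (chr5:37820485-37824583, minus strand), had 1185 and 1663 counts in saline, 566 in Day 3 replicate 2, and 2488, 1323 and 2741 at Day 8. These counts were 1.004 to 1.057 times those of Msx1, and in the log2 table the entries were 9.204 and 9.196. Whether the counting used the strand is not given in the sources used here, so reads of the sense and the antisense transcript cannot be told apart and the Msx1 values stand for the pair.

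**Figure D2:**
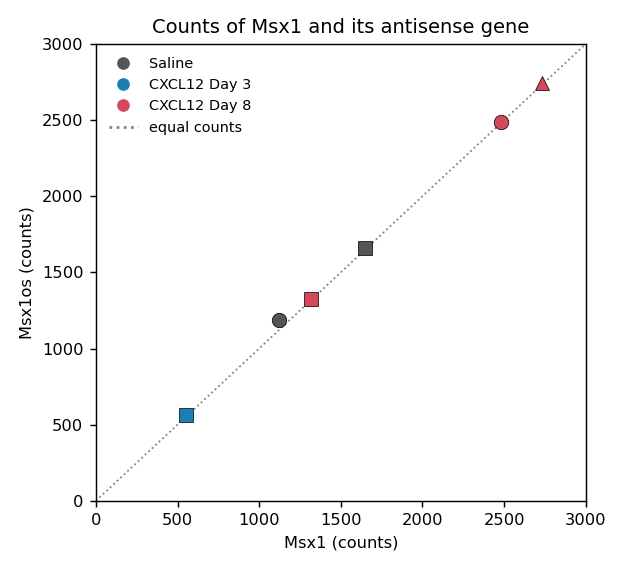
Counts of Msx1 (horizontal axis) and Msx1os (vertical axis) in the 6 libraries with raw counts. Each point is 1 library, circles, squares and the triangle stand for replicates 1, 2 and 3, and all points lie on or just above the dotted line of equal counts.

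Msx2, the close relative of Msx1, had another distribution over the libraries. It had 12 and 120 counts in saline, 84 (estimated) and 106 at Day 3, and 110, 13 and 22 at Day 8, or 1.45 and 11.5, 8.64 and 11.0, and 12.8, 1.09 and 2.28 CPM. A low and a high level occurred within both saline and Day 8, with saline replicate 1 and Day 8 replicates 2 and 3 low and the 4 other libraries high. The highest library exceeded the lowest 7.92-fold in saline and 11.8-fold at Day 8, against 1.28-fold at Day 3. The log2 difference of -0.30 at Day 8 against saline had an interval from -2.99 to 2.39 (adjusted p = 0.98, edgeR), and those of 1.32 at Day 3 and -1.68 between the days did not pass either (limma adjusted p = 0.71 and 0.75). Without Day 8 replicate 1, Msx2 passed the rule between the days, at -2.69 (limma unadjusted P = 0.028, adjusted p = 0.21), and the difference from saline was -1.98 (edgeR unadjusted P = 0.094, adjusted p = 0.61), which did not pass. The summed level of 10 epithelial markers was 764 and 626 CPM in saline replicate 1 and Day 8 replicate 2, the libraries with the fewest Msx2 counts, and 1166 CPM in Day 8 replicate 3, against 1189 to 1420 CPM in the libraries with high Msx2. Its part in the Msx2 values was not tested.

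Klf5, a zinc-finger factor of the uterine epithelium, was highest in 2 of the Day 8 libraries. Its levels were 42.7 and 59.3 CPM in saline, 53.7 and 60.4 CPM at Day 3, and 74.2, 49.7 and 105 CPM at Day 8. Day 8 replicate 2 fell within the saline range, and the other Day 8 libraries were above both other groups. The log2 difference was 0.56 at Day 8 against saline (95% interval -0.34 to 1.47, adjusted p = 0.96, edgeR), 0.12 at Day 3 (-0.71 to 0.95, limma, but -0.10 without quantile normalisation) and 0.39 between the days (-0.36 to 1.15, limma). Without Day 8 replicate 1, Klf5 at Day 8 differed by 0.58 from saline and by 0.39 from Day 3.

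Calca, whose row counts the calcitonin and CGRP transcripts together, was at or under the floor in 5 libraries. It had 0 and 2 counts in saline, 1 (estimated) and 2 at Day 3, and 1, 61 and 50 at Day 8. Day 8 replicates 2 and 3, at 5.10 and 5.18 CPM, stood far above all others, and Day 8 replicate 1 lay among the saline and Day 3 libraries, so that Day 8 overlapped both groups. Over the pooled counts, Calca at Day 8 was 34.7 times its saline level, with an exact 95% counting interval from 9.39 to 290.1 (112 against 2 counts), and 23.9 times its Day 3 level (7.96 to 117.5). The intervals leave out the spread within Day 8. With that spread, the edgeR test at Day 8 against saline gave a log2 difference of 4.89 (SE 1.76, 95% interval 0.75 to 9.02, unadjusted P = 0.027, adjusted p = 0.96). Calca passed the filter on low counts only through Day 8 replicates 2 and 3, the libraries on which this call rests. The call was lost without saline replicate 1 (4.08), saline replicate 2 (8.06) or Day 8 replicate 3 (4.48), and was kept without Day 8 replicate 1 (5.44, adjusted p = 0.30). Between the days, limma on log2 of the normalised count plus 1, a scale that understates low genes, gave 2.56 (SE 1.42, unadjusted P = 0.11, adjusted p = 0.72), and without Day 8 replicate 1 the difference passed the rule at 3.97.

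**Figure D3:**
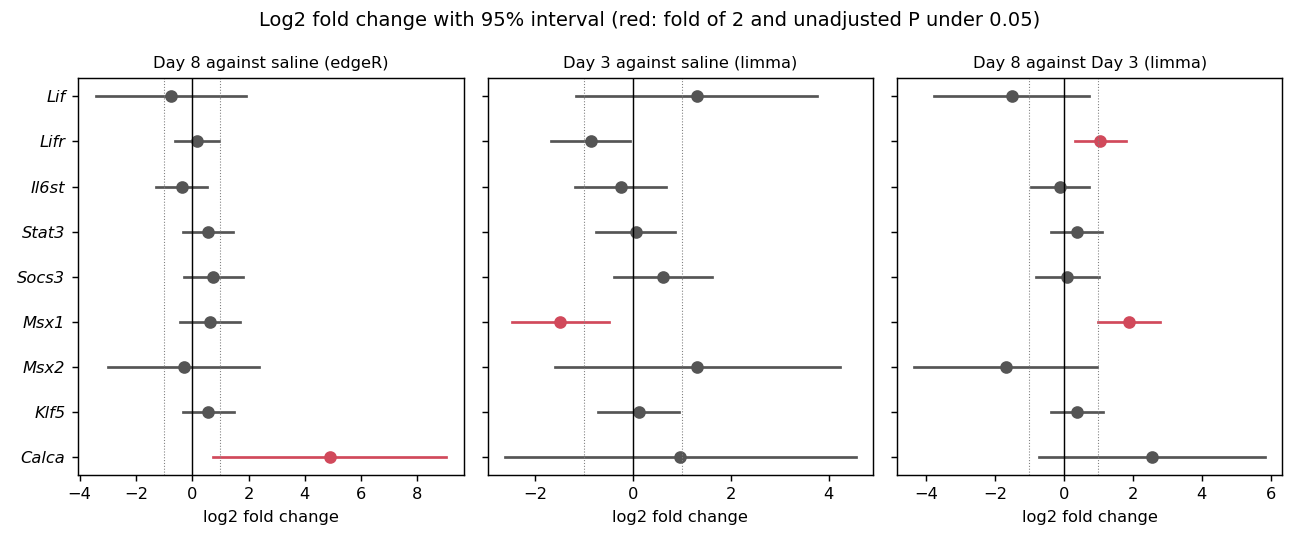
Log2 fold change of each gene (horizontal axis) with its 95% interval for Day 8 against saline, Day 3 against saline and Day 8 against Day 3. Red marks a fold of at least 2 with an unadjusted P under 0.05, reached by Calca in the first panel, Msx1 in the second, and Lifr and Msx1 in the third.

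The Day 8 libraries with Calca also differed from Day 8 replicate 1 in genes that ovarian steroids regulate. The median centred log2 level of 10 progesterone-induced genes was 1.54 and 1.33 in Day 8 replicates 2 and 3, 0.13 in replicate 1, -1.04 and 0.03 in saline, and -0.59 and -0.64 at Day 3. That of 10 oestrogen-induced genes was -0.45 and -0.57 in Day 8 replicates 2 and 3, against -0.02 to 0.18 in the other libraries. Summed markers of uterine glands were 2181 and 3341 CPM in Day 8 replicates 2 and 3 and 70.0 to 160 CPM elsewhere. Spink1 (1305 and 2016 CPM) and Prss29 (646 and 932 CPM) made up most of these sums. Prss28 (126 and 192 CPM) and Foxa2 (13.4 and 16.1 CPM) were also highest there. Cxcl15 was not (10.45 and 20.1 CPM, against 31.7 and 17.1 CPM in saline). Ttr and Sox17 were highest in Day 8 replicate 3 but lower in replicate 2 than in replicate 1. Summed ovarian markers were 3751 and 28.7 CPM in Day 8 replicates 2 and 3, the highest and the lowest of all, while Calca was 5.10 and 5.18 CPM in them. The part of gland genes and hormonal state in the Calca values was not tested.

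**Figure D4:**
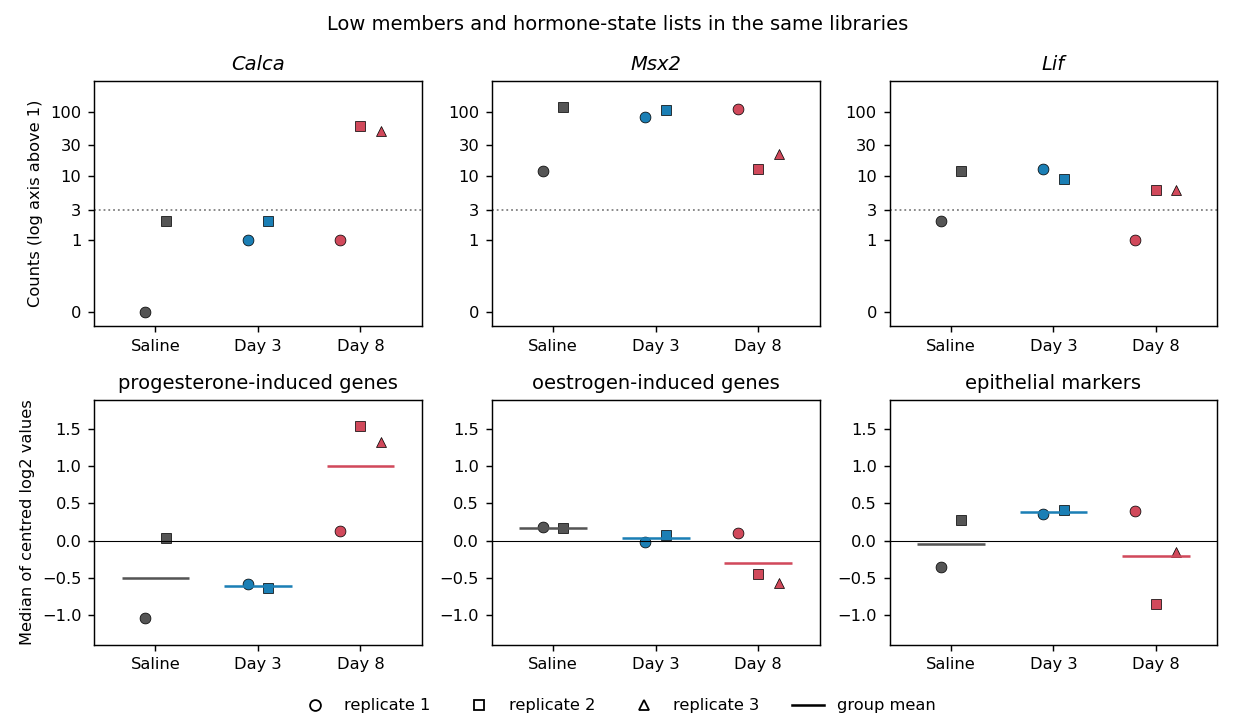
Upper panels show counts of Calca, Msx2 and Lif per library on a log axis that is linear below 1, with the floor of 3 counts dotted. Lower panels show the median centred log2 level of progesterone-induced genes, oestrogen-induced genes and epithelial markers in the same libraries, with group means as bars, and Day 8 replicates 2 and 3 are the highest for Calca and for the progesterone-induced genes.

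Lists of other genes around LIF and its receptor were counted by the same rule. Of all genes tested, 2.94% were called at Day 8 against saline, 4.51% at Day 3 against saline and 4.64% between the days. These shares stand beside the count of each list that follows. Of 11 tested cytokines and receptor chains that share gp130, 0 were called at Day 8 against saline by edgeR, with 0 at an unadjusted P under 0.05. The smallest P there belonged to Osmr (log2 difference 0.68), Clcf1 (0.53) and Ebi3 (-0.80). At Day 3 against saline only Il27ra, a receptor chain for interleukin-27, was called (2.00 from 3 and 4 counts to 12 and 14), and between the days only Il11, a cytokine of decidualisation, was called and lower at Day 8 (-1.53). Over the list, the median log2 difference was 0.18 at Day 8 against saline, 0.64 at Day 3 against saline and -0.13 between the days, the order used for the medians that follow.

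Of 10 Janus kinases and other STAT factors, 0 were called at Day 8 against saline and 0 had an unadjusted P under 0.05 in edgeR, where Tyk2 (-0.51), Stat5b (0.30) and Stat6 (-0.48) had the smallest P. Jak1, a kinase bound to gp130, fell by 1.00 on the log2 scale at Day 3 (limma unadjusted P = 0.037, adjusted p = 0.62), and 0 were called between the days by limma, again with 0 at an unadjusted P under 0.05. Medians over these genes were 0.17, -0.21 and 0.12.

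Of 14 negative regulators of cytokine signalling, Socs1, an inhibitor of Janus kinases related to Socs3, was called at both days. It had 26 and 25 counts in saline, 77 (estimated) and 79 at Day 3, and 50, 77 and 76 at Day 8, so that all CXCL12 libraries were above saline. Its log2 difference was 1.26 at Day 8 (SE 0.44, edgeR unadjusted P = 0.023, adjusted p = 0.96) and 1.63 at Day 3 (SE 0.38, limma unadjusted P = 0.0027, adjusted p = 0.62). Cish (0.75) and Pias2 (-0.55) followed at Day 8 by P without passing, and Socs7 alone was called between the days (1.00). For the inhibitors the medians were -0.10, -0.10 and -0.01.

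Among 12 genes known to be induced through STAT3, Cebpd, a factor of acute-phase responses, was the single gene called at Day 8 against saline. It had 217 and 317 counts in saline, 448 (estimated) and 441 at Day 3, and 404, 1128 and 1095 at Day 8, with a log2 difference of 1.56 (SE 0.42, edgeR unadjusted P = 0.0072, adjusted p = 0.96). Junb (0.74) and Myc (1.29) did not pass, and 0 of 12 were called in the limma comparisons, where 1 gene at Day 3 against saline and 2 between the days had an unadjusted P under 0.05 short of 2-fold. The medians of these targets were 0.14, 0.46 and 0.10.

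Of 6 tested genes for peptides and receptor chains of CGRP and adrenomedullin, 0 were called against saline at either day, with 0 (edgeR, Day 8) and 2 (limma, Day 3) at an unadjusted P under 0.05. Ramp1, which with Calcrl forms the CGRP receptor, had 234 and 170 counts in saline, 151 (estimated) and 173 at Day 3, and 125, 1336 and 1197 at Day 8. The same 2 Day 8 libraries that held Calca were high, and the log2 difference was 1.88 (SE 0.84, edgeR unadjusted P = 0.059, adjusted p = 0.96). Ramp2 (0.38) and Crcp (0.28) came next by P, and Ramp3, another receptor-activity chain, was lower at Day 8 than at Day 3 (-2.72, SE 0.89, limma unadjusted P = 0.015, adjusted p = 0.69). For this group the medians were 0.24, 0.44 and -0.17.

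Of 14 other Kruppel-like factors, 0 were called at Day 8 against saline and 0 had an unadjusted P under 0.05 in edgeR, with Klf2 (0.79), Klf3 (-0.45) and Klf15 (1.10) first by P. Klf17 was called lower at Day 3, where both libraries had 0 counts against 10 and 22 in saline, and higher at Day 8 than at Day 3, as was Klf2 (1.31). Across the family the medians were 0.17, -0.21 and 0.28.

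Of other genes of the implantation window, 3 of 14 were called at Day 3 against saline by limma, where 4.51% of all genes were called. At Day 8 against saline 1 of 16 was called by edgeR, where 2.94% of all genes were called. The counts come from different tests and libraries, and their difference was not tested. Il13ra2, a decoy receptor, was higher at Day 8 (3.49, edgeR adjusted p = 0.96) and at Day 3 (1.97, limma adjusted p = 0.62). Ihh, the hedgehog ligand of the epithelium, and its receptor Ptch1 were lower at Day 3 (-2.68 and -2.92). Ihh had 30 and 29 counts in saline and 7 (estimated) and 1 at Day 3. Ptch1 had 16 and 12 counts in saline and 2 (estimated) and 0 at Day 3, under the floor of 3 counts. Hbegf (-1.03) and Areg (2.96), both ligands of the EGF receptor family, had small P at Day 8 without passing. Between the days Ihh was higher at Day 8 (3.61), and Hbegf (-1.35) and Muc1 (-1.56) were lower. Medians of this list were 0.17, -0.54 and 0.82, and 4 of the 17 listed genes were also among the progesterone-induced genes.

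**Figure D5:**
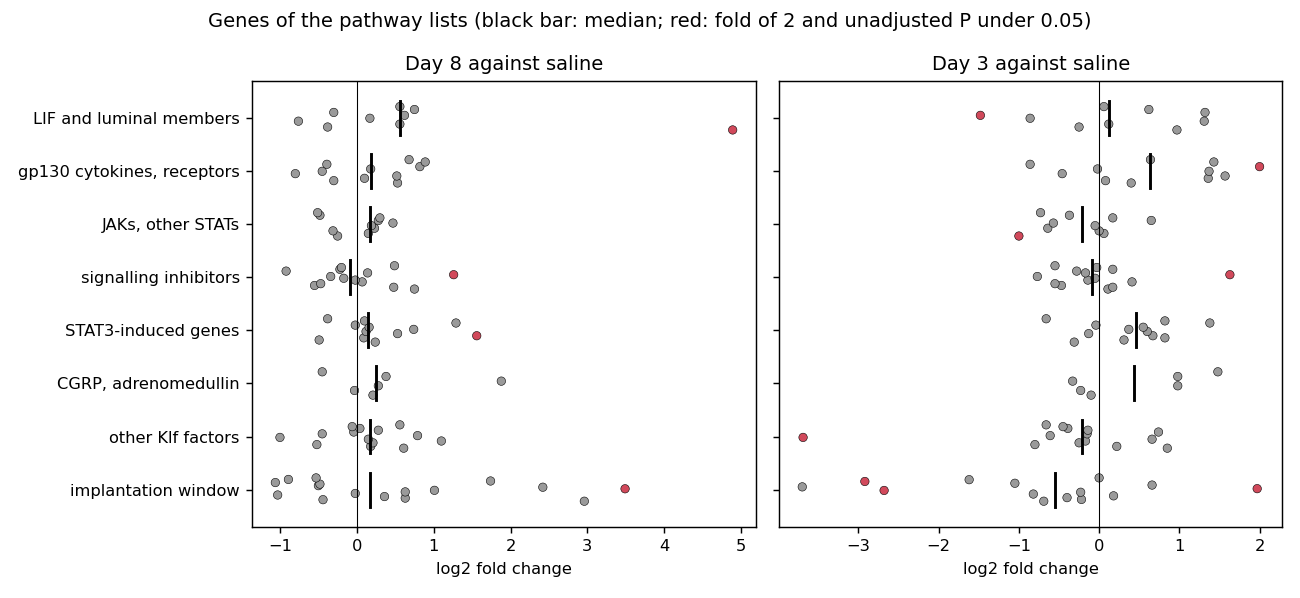
Log2 fold change (horizontal axis) of every tested gene of the 9 members and of 7 pathway lists at Day 8 and Day 3 against saline. Each point is 1 gene, black bars are list medians, and red marks a fold of at least 2 with an unadjusted P under 0.05.

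The hormone-response and cell type lists were counted by the same rule as the members. At Day 8 against saline 3 of 10 progesterone-induced genes (Il13ra2, Cyp26a1 and Lrp2) and 4 of 7 gland markers were called higher, 7 of 8 fat markers, 3 of 8 leukocyte markers and 1 of 8 oestrogen-induced genes (Ltf) lower. The counts were 2 of 8 for smooth muscle and 1 of 10 for epithelium, both higher, and 0 for stroma, endothelium, oviduct and ovary. Of all genes tested, 2.94% were called. The gland markers Spink1, Prss28 and Prss29 had at most 7 counts outside Day 8 replicates 2 and 3. They passed the filter on low counts only through these libraries, on which their calls rest. At Day 3 against saline, where Msx1 was lower and 4.51% of all genes were called, 5 of 9 ovarian and 4 of 8 leukocyte markers were called lower. Of 9 tested progesterone-induced genes 4 were called, Il13ra2 and Hsd11b2 higher and Ihh and Ptch1 lower. The gland marker Cxcl15 was called lower and the smooth muscle marker Actg2 higher, each alone in its list. The counts were 0 of 10 for epithelium, 0 of 10 for stroma, and 0 for oestrogen-induced genes, endothelium, fat and oviduct. The part of these lists in the Msx1 and Lifr values was not tested.

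For the 6 members with a mean of at least 10 CPM, the genes with the most similar pattern over the 7 libraries were taken by Pearson's r among 9373 genes. They were R3hdm1 (0.987), Pak1 and Abcc4 for Lifr, Capn2 (0.983), Pip5k1c and Asb1 for Il6st, Tgtp1 (0.986), Glul and Ifit1 for Stat3, and Dnajb9 (0.988), Spns2 and Gnai1 for Socs3. For Klf5 they were Hgs (0.974), Klhl12 and Myo1d, and for Msx1 they were Msx1os, Ap3b2 (0.973) and Tmem192. With 7 libraries that share depth and group structure, these values are a description.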

How the data were processed

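RNA of whole mouse uterus was sequenced with QuantSeq, a 3′ mRNA kit. The authors aligned reads with Bowtie2 and took read counts of genes, with uniquely and repeatedly aligned reads, from Bedtools coverage. The submitters' processing notes name the builds mm10 and hg19. Versions, the gene annotation and the use of strand are not given in the sources used here. Of 7 libraries, 6 were deposited as raw counts per gene symbol, and the authors deposited Day 3 replicate 1 as log2 of a normalised count plus 1, their stated normalisation being by quantiles in edgeR.

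In the log2 file, 95.6% of 3661 low values lay within 0.1 of a whole count after a scale of 1.0545, against 20% by chance, which gave its estimated counts. There were 0 unused per-sample columns. Samples were grouped by their labels. Day 8 against saline was tested by edgeR 4.0.16 (quasi-likelihood, TMM, filterByExpr, 6 count libraries, 3 residual degrees of freedom). Comparisons with Day 3 used limma 3.58.1 in R 4.3.3 on quantile-normalised log2(count + 1) of 7 libraries, with 4 residual degrees of freedom. Changes that limma gives for low genes are understated on this scale. P-values were adjusted by Benjamini-Hochberg over all genes tested. Both tests were checked on simulated data. A call needed a fold of 2 and an unadjusted P under 0.05. Alternatives were DESeq2 1.42.0, other scalings, pseudocounts and filters, a replicate block, edgeR on estimated counts, and leaving out each library.

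Every member is described. From each pathway list the calls and the 3 genes of smallest P at Day 8 against saline are named, and the 3 most similar genes for each member with a mean of at least 10 CPM. Members and lists were chosen with earlier results of these data known. Gene positions come from GENCODE M21 (GRCm38) and promoters from RefSeq. Listed Acod1 was matched as Irg1.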

Additional observations from a re-analysis of the deposited data

Results flagged for a closer look

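Lifr was the member whose libraries all lay on opposite sides of the saline mean at the 2 days, on the quantile-normalised log2 scale. Relative to that mean, the Day 3 libraries stood at -0.61 and -1.11 and the Day 8 libraries at 0.06, 0.01 and 0.51. The saline libraries themselves stood at 0.37 and -0.37, a range that held the Day 8 values of 0.06 and 0.01. In CPM, Day 8 replicate 2 (37.22) was just under the saline mean (37.3), so the trait depends on the scale. The difference, Day 8 minus Day 3, was 1.05 (SE 0.32, limma unadjusted P = 0.011, adjusted p = 0.69). The difference between the days was larger for Msx1 (1.89, SE 0.39, limma unadjusted P = 0.0013, adjusted p = 0.65), whose Day 8 libraries stood on both sides of the saline mean, at 0.82, -0.46 and 0.88.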

How the results depend on the processing

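Of 298 recomputed log2 differences of members, 269 kept their direction and their side of the threshold, 16 reversed, 7 gained and 6 lost the call. Without quantile normalisation the calls at Day 3 against saline went from 668 (281 higher, 387 lower) to 1040 (106 higher, 934 lower), the median of all genes moved to -0.262, 2 members were called (Lifr and Msx1), and Stat3 (-0.02) and Klf5 (-0.10) reversed. With edgeR on estimated counts that comparison had 162 higher and 600 lower calls, Day 8 against Day 3 had 562 higher and 265 lower instead of 332 and 354, and Calca was called between the days (4.38). Under DESeq2 49 genes passed the adjusted threshold at Day 8 against saline, none of them a member. With at least 10 counts in every library 0 members were called at Day 8 against saline by edgeR, since Calca and Lif were not tested.

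Deviations of same-numbered libraries from their group means had correlations of -0.17 to 0. In the saline and Day 3 groups the deviations of the libraries mirror each other by construction. The values therefore cannot decide whether the numbers pair animals. With a replicate block the calls were 156 instead of 453 at Day 8 against saline and 425 instead of 686 at Day 8 against Day 3, where 1 member (Msx1) was called, Lifr lost its call (0.89) and Socs3 reversed (-0.12). The block changed no other member call.

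Leaving out 1 library moved the calls at Day 8 against saline between 229 (without Day 8 replicate 3) and 1527 (without saline replicate 2) and the members called between 0 and 2. The counts were 286 without saline replicate 1 and 1027 without Day 8 replicate 1. At Day 3 against saline the ranges were 267 (without saline replicate 1) to 2881 (without saline replicate 2, 2293 of them at an adjusted p under 0.1) and 1 to 2 members, with Lifr added at an adjusted p of 0.078 in limma. Leaving out Day 3 replicate 1 or 2 gave 320 and 270. At Day 8 against Day 3 they were 294 (without Day 3 replicate 1) to 1661 (without Day 8 replicate 1, 482 of them at an adjusted p under 0.1) and 1 to 4 members, the 4 being Lifr, Msx1, Msx2 and Calca. Without Day 3 replicate 2 the count was 329. Where a group was left with 1 library, that library was assumed to vary like the others.

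The reversals on leaving out a library fell within these ranges. At Day 8 against saline they were -0.77 to 0.17 for Il6st, -0.12 to 0.55 for Lifr and -1.98 to 1.86 for Msx2. At Day 3 against saline they were -0.80 to 0.30 for Il6st, -0.02 to 0.13 for Stat3, -0.16 to 2.81 for Msx2 and -0.08 to 0.32 for Klf5. Between the days they were -0.30 to 0.11 for Il6st and -0.12 to 0.46 for Socs3. The cause of these changes was not tested. Counts per library were low for Lif, at 1 to 13, and ran from 0 to 61 for Calca.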
